A study of Mus musculus with 2 samples.

Results

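The astrocyte genes described here are 10 genes that mark astrocytes or are abundant in them: Gfap, Aqp4, Slc1a2, Slc1a3, Aldh1l1, Aldoc, Glul, Sparcl1, Sparc and Clu. They were picked by symbol from the 32285 genes of the deposited matrices, and each symbol matched 1 gene identifier. GL261 is a mouse glioma cell line from the C57BL/6 strain, and the labels give its cell type as Astrocytoma. Adherent cells were grown in serum-containing DMEM, while neurosphere cells were grown for 12 days in that medium with 20 ng/ml of EGF, 20 ng/ml of FGF and B-27 added. Per the labels both cultures were treated with trypsin and frozen in medium with DMSO, but only the neurospheres were also broken up by pipetting, which cannot be told apart from the culture condition. Each was sequenced as 1 library with a 10x Genomics single cell protocol that reads the 3′ ends of transcripts. With 1 library per culture there was no replicate, so no difference could be set against the spread between cultures, no test was run, and every interval below covers counting error only.

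Astrocytes are the glial cells that supply neurons with metabolites, clear glutamate and potassium from the extracellular space and help to maintain the blood-brain barrier. Mature astrocytes are recognised by the filament protein GFAP, by the water channel AQP4 in their endfeet and by the glutamate transporters GLT-1 (Slc1a2) and GLAST (Slc1a3). The other genes cover their folate metabolism (Aldh1l1), glycolysis (Aldoc) and glutamine synthesis (Glul), and the proteins they secrete (Sparcl1, Sparc and Clu). Several of these genes are also used outside astrocytes, Slc1a3 by radial glia and Sparc by many matrix-producing cells.

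A level is the number of UMIs (unique molecular identifiers, counted transcripts) of a gene in all kept cells of 1 library, per 1000000 UMIs of that library (CPM), with its exact 95% Poisson interval. The 5051 kept adherent cells held 46290996 UMIs, at a median of 8260 in each. The 4276 kept neurosphere cells held 64943938 UMIs, at a median of 13198.5. Because the neurosphere cells were deeper, shares of cells with a UMI are compared after each cell was thinned to 5000 UMIs, which left 4464 adherent and 4196 neurosphere cells and dropped 587 and 80 that were shallower. The libraries shared 12 cell barcodes, 9 of them among the kept cells. Both libraries come from 1 cell line, so no cell type known to lack these genes could serve as a measure of free RNA. UMIs per gene were not divided by length, and levels are compared between cultures for the same gene and not between genes.

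The members divided into 3 that were absent or nearly so in both cultures, 3 that were lower in neurosphere cells, 1 that was higher and 3 that differed by less than 2-fold. Sparc, Slc1a3 and Clu were 7.33, 4.6 and 5.88 times lower in neurosphere than in adherent cells, and Glul was 2.47 times higher. Aqp4 was not found in any cell, and Gfap and Slc1a2 were found in under 1% of the cells of either culture. The 8 members with at least 50 UMIs over both libraries therefore held 1 gene that was over 2-fold higher and 3 that were over 2-fold lower. Among all 14654 genes with at least 50 UMIs, 21.7% were over 2-fold higher and 11.7% were over 2-fold lower. The median log2 fold change (neurosphere over adherent CPM) was -0.40 for the 8 members and 0.32 for all 14654 genes. These counts are a description and carry no test.

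**Figure D1:**
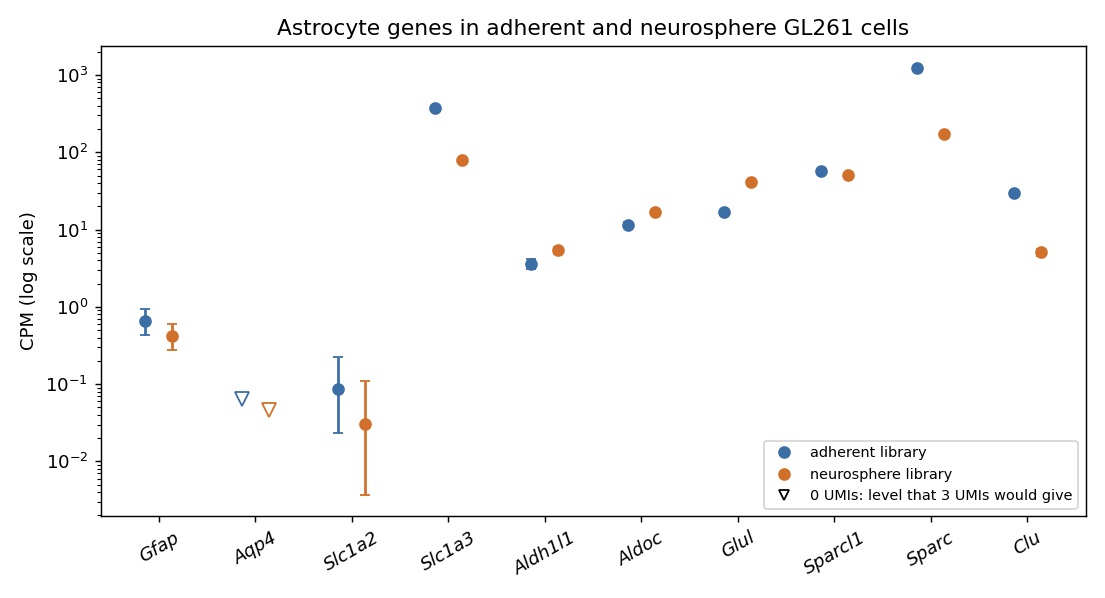
CPM of each member (log scale) in the adherent and the neurosphere library, with exact 95% Poisson intervals where they are wider than the symbol. Triangles stand for Aqp4, which had 0 UMIs, drawn at the level that 3 UMIs would give. Sparc, Slc1a3 and Clu sit lower in the neurosphere library, Glul sits higher, and Gfap and Slc1a2 stay under 1 CPM in both.

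The markers of mature astrocytes are given first, and they do not test the Astrocytoma label of the cell line. Aqp4, the water channel, had 0 UMIs in 5051 adherent and in 4276 neurosphere cells. The exact 95% binomial interval of the share of cells with a UMI reached 0.0730% and 0.0862%, while a floor of 3 counts stands for 0.0594% and 0.0702%. These are limits on cells with a UMI and not on cells that express the gene. The exact 95% Poisson interval of a count of 0 reached 0.0797 CPM in adherent against 0.0568 CPM in neurosphere cells. In the annotation of GRCm38 no gene on the same strand overlaps Aqp4. Slc1a2, the main glutamate transporter of the adult forebrain, had 4 UMIs in adherent and 2 UMIs in neurosphere cells, each in a separate cell. The log2 fold change of Slc1a2 was -1.49 with an interval of -4.96 to 1.31, so no difference was detectable.

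Gfap, the intermediate filament that defines mature and reactive astrocytes, had 30 UMIs in adherent cells (0.648 CPM, interval 0.437 to 0.925) and 27 UMIs in neurosphere cells (0.416 CPM, 0.274 to 0.605). No cell held more than 1 UMI of Gfap, so that 0.594% of adherent and 0.631% of neurosphere cells had one, and 0.269% and 0.215% after thinning. The log2 fold change of -0.64 had an interval of -1.45 to 0.16, and the cultures were thus not told apart for Gfap. Of the clusters described below, adherent cluster 0 held 10 of the 30 UMIs and neurosphere cluster 0 held 10 of the 27, while adherent clusters 3, 8 and 10 and neurosphere clusters 2, 4, 6 and 11 held 0. Each cluster 0 was the largest of its library, with 14.5% of the cells. Gfap was at 1.82 CPM (0.872 to 3.34) in adherent cluster 0 and at 0.811 CPM (0.389 to 1.49) in neurosphere cluster 0. Of the 4 defining markers of mature astrocytes, Slc1a3 alone was therefore found in more than 1% of cells.

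Transcription of Gfap is known to depend on STAT3, which cytokines of the IL-6 family switch on, and on the nuclear factors NFI. RefSeq promoters (250 bases before to 50 after a transcription start, GRCm38.p6) were found for 7 of the 10 members, with 2 starts for Aldoc. A STAT site (TTCNNNGAA, which reads the same on both strands) was present in the promoters of Gfap, Slc1a3 and Aldoc, and in 8.30% of all 32851 promoters. These 3 promoters are shown because they hold the site, Gfap being nearly absent from both cultures and Slc1a3 being found in most adherent cells. Capitals mark the STAT sites, which begin 2 bases before the start in Gfap, 96 before it in Slc1a3, and 124 and 83 before it in Aldoc. The promoters lie at chr11:102897151-102897450 on the minus strand (Gfap, within the span of the gene's longest model), chr15:8710758-8711057 on the minus strand (Slc1a3) and chr11:78323948-78324247 on the plus strand (Aldoc).
Gfap: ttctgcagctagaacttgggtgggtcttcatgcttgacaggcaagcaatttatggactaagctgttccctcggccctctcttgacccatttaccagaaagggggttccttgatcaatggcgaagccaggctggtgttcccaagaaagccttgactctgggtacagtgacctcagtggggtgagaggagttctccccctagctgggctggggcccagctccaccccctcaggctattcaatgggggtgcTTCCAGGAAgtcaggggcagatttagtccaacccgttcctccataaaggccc
Slc1a3: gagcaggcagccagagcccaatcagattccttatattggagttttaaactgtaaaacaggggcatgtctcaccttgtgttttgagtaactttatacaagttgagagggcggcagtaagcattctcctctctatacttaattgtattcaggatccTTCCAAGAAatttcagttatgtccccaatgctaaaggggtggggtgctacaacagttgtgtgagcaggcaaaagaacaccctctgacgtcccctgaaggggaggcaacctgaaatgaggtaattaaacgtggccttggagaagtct
Aldoc: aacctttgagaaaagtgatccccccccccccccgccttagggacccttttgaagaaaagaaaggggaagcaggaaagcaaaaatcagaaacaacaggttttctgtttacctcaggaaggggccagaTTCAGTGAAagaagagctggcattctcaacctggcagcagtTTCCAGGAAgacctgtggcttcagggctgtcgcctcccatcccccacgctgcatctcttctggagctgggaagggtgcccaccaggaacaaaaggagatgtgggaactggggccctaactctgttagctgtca
The short arm of the NFI site (TTGGC, either strand, also part of the full site) was in the promoters of Slc1a2, Glul and the other start of Aldoc, and in 46.7% of all promoters, while the full NFI palindrome was in none of the 8 promoters and in 0.0365% of all. The promoters of Aldh1l1 and Sparc held neither motif, and those of Aqp4, Sparcl1 and Clu were not analysed here. A match of letters does not show binding.

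The regulators themselves were measured in both cultures. Of 17 regulators of astrocyte fate, 16 had at least 50 UMIs over both libraries. Of these, 3 were over 2-fold higher, 3 over 2-fold lower and 10 in between, with a median log2 fold change of 0.067. Among all genes 21.7% were higher and 11.7% lower by the same rule, with a median of 0.32. Stat3 was at 48.7 CPM in adherent against 62.8 CPM in neurosphere cells. Nfia was at 120.2 and 127.7 CPM, and Nfib at 137.6 and 142.1 CPM. Sox9, a transcription factor of the glial lineage, had 0 UMIs in both libraries, as did the widely expressed heat shock gene Hspb1. Whether the reference used by the authors could count the genes listed at 0, Aqp4 among them, was not tested. The Notch target Hes5 was higher in neurosphere cells, at 17.1 CPM against 0.302 CPM (log2 fold change 5.82, 5.07 to 6.70), and so was the receptor subunit Lifr, at 12.2 against 2.23 CPM (2.45, 2.16 to 2.76). The inhibitors of differentiation Id3 and Id1 had the lowest fold changes of the list, with Id3 at 163.6 against 992.3 CPM (log2 fold change -2.60) and Id1 at 166.7 against 538.6 CPM (-1.69). The gp130 subunit Il6st, which pairs with Lifr and Osmr, was at 8.98 against 17.2 CPM (log2 fold change -0.93).

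Slc1a3 encodes GLAST, the sodium-dependent glutamate transporter of radial glia and astrocytes. The gene lies on chromosome 15 from 8634124 to 8710764, on the minus strand, where an unnamed gene model (Gm37310) overlaps it on the same strand. It was at 370.4 CPM in adherent cells (364.9 to 376.0) and at 80.6 CPM in neurosphere cells (78.4 to 82.8), with a log2 fold change of -2.20 (-2.25 to -2.16). After thinning, 71.9% of adherent cells (70.5% to 73.2%) and 26.4% of neurosphere cells (25.1% to 27.8%) had a UMI of Slc1a3. The median cell held 1 UMI in adherent and 0 UMIs in neurosphere cells at that depth. Slc1a3 was thus lower in neurosphere cells both in its summed level and in the share of cells.

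Glul encodes glutamine synthetase, which turns the glutamate taken up into glutamine, and lies on chromosome 1 from 153899944 to 153909723. It was at 16.9 CPM in adherent cells (15.7 to 18.1) and at 41.7 CPM in neurosphere cells (40.2 to 43.3), with a log2 fold change of 1.31 (1.19 to 1.42). Glul was detected in 7.59% of thinned adherent cells (6.83% to 8.41%) and 16.8% of thinned neurosphere cells (15.7% to 17.99%). The transporter and the enzyme of the glutamate to glutamine route therefore differed in opposite directions between the cultures. Of 11 measured genes of glutamate and glutamine handling other than the members, 1 was over 2-fold higher, 1 was over 2-fold lower and 9 were in between, with a median log2 fold change of 0.043. The shares among all genes were 21.7% higher and 11.7% lower. The glutamine transporter Slc38a3 was higher, at 8.41 against 0.648 CPM (log2 fold change 3.70, 3.17 to 4.28), and the neutral amino acid transporter Slc1a5 was lower, at 24.8 against 52.2 CPM (-1.08, -1.17 to -0.98). Slc38a1, another glutamine carrier, had a log2 fold change of 0.71, and Glud1, glutamate dehydrogenase, of -0.59. Pc was not among the symbols, and Slc38a5 had 0 UMIs.

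Among the secreted proteins, Sparc differed most. Sparc, a calcium-binding glycoprotein of the extracellular matrix, lies on chromosome 11 from 55394500 to 55423183. It was at 1247 CPM in adherent cells (1237 to 1257) and at 170.2 CPM in neurosphere cells (167.1 to 173.4), a log2 fold change of -2.87 (-2.90 to -2.84). In adherent cells 98.2% of the thinned cells (97.8% to 98.6%) had a UMI of Sparc, and the median cell held 6 UMIs. In neurosphere cells 44.8% (43.3% to 46.4%) had one, with a median of 0. Cells with 10 or more UMIs made up 17.4% of the thinned adherent and 0.787% of the thinned neurosphere cells. At the same depth Sparc was thus found in nearly every adherent cell, and was at 0 UMIs in most neurosphere cells.

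Sparcl1 (Hevin), a relative of Sparc that astrocytes secrete at synapses, did not follow it. It was at 56.7 CPM in adherent cells (54.6 to 58.9) and at 50.5 CPM in neurosphere cells (48.8 to 52.2), with a log2 fold change of -0.17 (-0.24 to -0.094), which turned to 0.050 when the library total also counted mitochondrial and ribosomal genes. Sparcl1 was detected in 22.7% of thinned adherent cells (21.5% to 23.9%) and 19.7% of thinned neurosphere cells (18.5% to 20.9%). The mean was 0.293 UMIs per thinned adherent cell and 0.282 per thinned neurosphere cell. The variance over the mean was 1.32 in adherent and 1.81 in neurosphere cells, and the 5% of cells with the most UMIs held 39.7% and 46.9% of them.

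Clu encodes clusterin, an extracellular chaperone, and lies on chromosome 14 from 65968483 to 65981547. It was at 29.9 CPM in adherent cells (28.3 to 31.5) and at 5.08 CPM in neurosphere cells (4.55 to 5.66), with a log2 fold change of -2.56 (-2.73 to -2.38). Clu was detected in 11.7% of thinned adherent cells (10.8% to 12.7%) and in 2.10% of thinned neurosphere cells (1.69% to 2.58%). The most UMIs of Clu in a single kept cell were 7 in adherent and 24 in the deeper neurosphere cells. After thinning they were 7 in adherent and 6 in neurosphere cells.

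**Figure D2:**
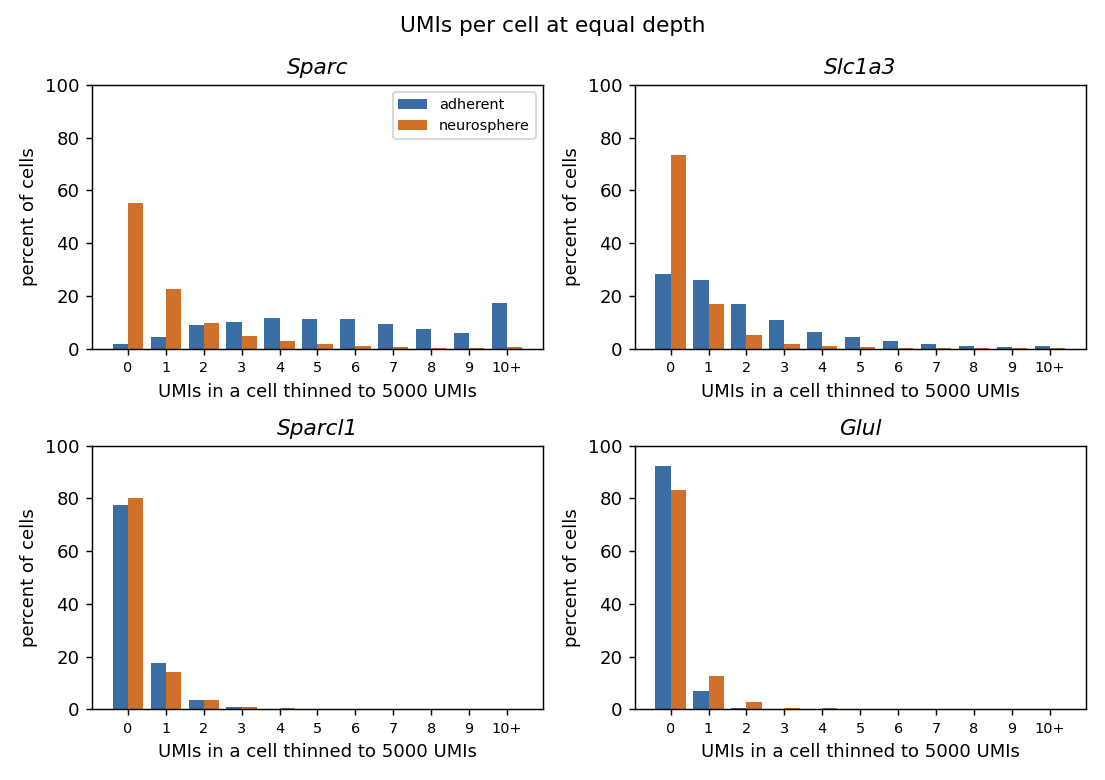
Percent of cells with 0 to 9 and with 10 or more UMIs of Sparc, Slc1a3, Sparcl1 and Glul, after each cell was thinned to 5000 UMIs (4464 adherent and 4196 neurosphere cells). For Sparc 1.77% of adherent and 55.2% of neurosphere cells are at 0, while for Sparcl1 22.7% of adherent against 19.7% of neurosphere cells hold a UMI.

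The enzymes Aldoc and Aldh1l1 differed by less than 2-fold. Aldoc, the brain form of aldolase, was at 11.3 CPM in adherent (10.4 to 12.4) against 17.1 CPM in neurosphere cells (16.1 to 18.1), a log2 fold change of 0.59 (0.44 to 0.75). Its UMIs were in 4.68% of thinned adherent cells (4.08% to 5.34%) and 6.60% of thinned neurosphere cells (5.87% to 7.40%). Aldh1l1, a folate enzyme often used to label astrocytes, was at 3.63 CPM in adherent (3.10 to 4.22) against 5.39 CPM in neurosphere cells (4.84 to 5.99), a log2 fold change of 0.57 (0.30 to 0.84). Its UMIs were in 2.06% of thinned adherent cells (1.67% to 2.52%) and 2.53% of thinned neurosphere cells (2.07% to 3.05%), whose intervals overlap. Gene models on the same strand (Gm45901 and Gm44236) overlap Aldh1l1, so reads there could be split between them.

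**Figure D3:**
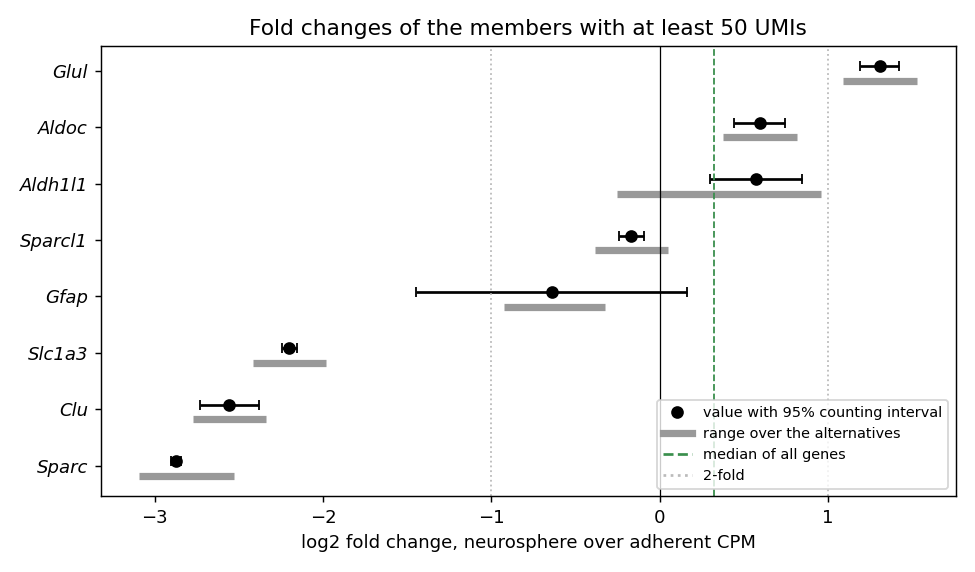
Log2 fold change of neurosphere over adherent CPM for the 8 members with at least 50 UMIs, with 95% counting intervals (points) and the range over the alternative processing (grey bars). The dashed line is the median of all 14654 genes, 0.32. Sparc, Clu and Slc1a3 lie below -1 and Glul above 1 over the whole of their grey bars, while the bars of Sparcl1 and Aldh1l1 cross 0.

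The level of each member was then followed within the cultures. Cells of each library were clustered with the members left out of the variable genes, so that their own levels did not form the clusters. This gave 11 adherent and 12 neurosphere clusters, which are given by number and by their leading genes, since both libraries come from 1 cell line. Cells of 1 culture are not replicates, and the cluster values are a description.

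Sparc, Slc1a3 and Clu did not overlap between the cultures at the level of clusters. Sparc ranged from 896.7 to 1377 CPM over the adherent clusters and from 67.7 to 440.3 CPM over the neurosphere clusters. For Slc1a3 the ranges were 260.7 to 1224 CPM and 43.2 to 213.7 CPM. For Clu they were 20.2 to 62.4 CPM and 1.08 to 18.5 CPM. Each of the 12 neurosphere clusters was thus below the lowest adherent cluster for these 3 genes, although for Clu the counting intervals of the nearest clusters overlap (16.7 to 24.3 CPM in adherent, 15.1 to 22.4 CPM in neurosphere cells). Glul was above the highest adherent cluster (23.5 CPM) in 10 of 12 neurosphere clusters, the nearest being at 23.6 CPM. The other members overlapped, with Sparcl1 at 22.0 to 90.0 CPM in adherent and 29.6 to 101.2 CPM in neurosphere clusters. The share of all genes whose clusters separate between the cultures was not counted. The separation is therefore not shown to be particular to these members.

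**Figure D4:**
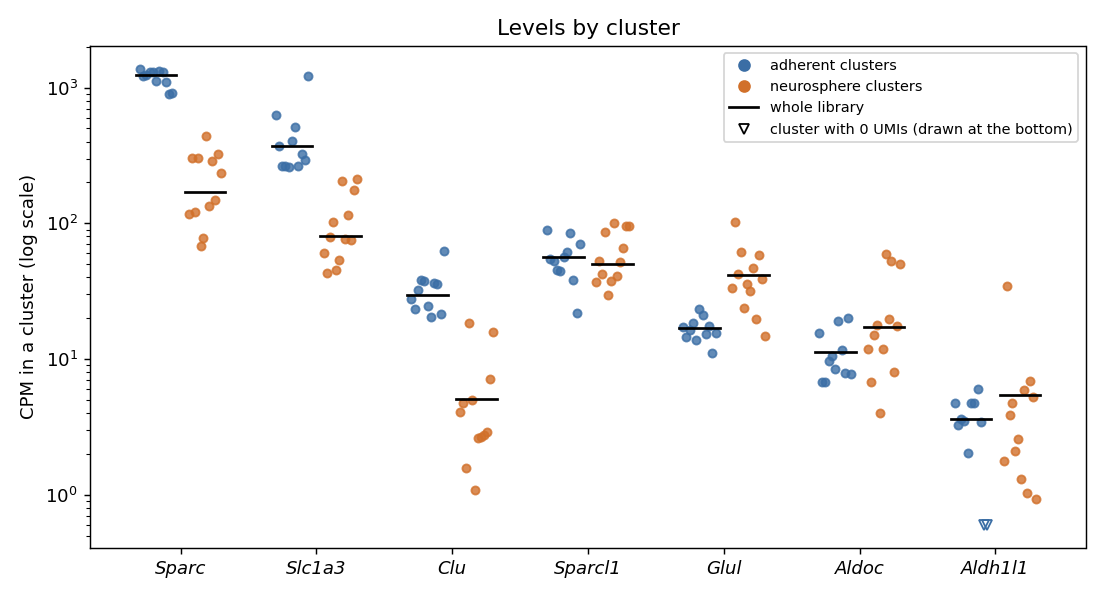
CPM (log scale) of 7 members in each of the 11 adherent and 12 neurosphere clusters (points) and in the whole library (bars). The points of the cultures do not overlap for Sparc, Slc1a3 and Clu, overlap widely for Sparcl1, and reach 34.3 CPM in a single neurosphere cluster for Aldh1l1.

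In adherent cells the spread between clusters differed by member. The highest cluster was 1.54 times the lowest for Sparc, 2.14 times for Glul and 2.97 times for Aldoc. Slc1a3, Sparcl1 and Clu spanned 4.70, 4.09 and 3.08 times, and Aldh1l1 ran from 0 UMIs in cluster 9 to 5.98 CPM in cluster 7. Slc1a3 was highest, at 1224 CPM (1040 to 1431), in cluster 10, led by Lars2, Pcdh9 and Dmd. That cluster held 47 cells with a median of 2600 UMIs, against 8260 in the whole adherent library, and the part of that low depth in its level was not tested. It was also highest for Clu, at 62.4 CPM from 8 UMIs. Without it the log2 fold change of Slc1a3 was -2.19. The next cluster for Slc1a3 was cluster 0 (9130015A21Rik and Enpp2), at 624.4 CPM, which was also highest for Sparcl1, at 90.0 CPM, and for Sparc. Cluster 9, led by the surface antigen Ly6a, was lowest for Sparc (896.7 CPM), Sparcl1 (22.0 CPM) and Glul (11 CPM) and highest for Aldoc (20.0 CPM). Clu was lowest, at 20.2 CPM, in cluster 6, led by the mitosis genes Aspm, Cenpe and Cenpf.

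In neurosphere cells the members peaked in different clusters. The highest cluster was 6.50 times the lowest for Sparc, 6.89 times for Glul, 14.8 times for Aldoc, 17.2 times for Clu and 37.0 times for Aldh1l1. The lowest cluster held only 8 UMIs of Clu and 2 UMIs of Aldh1l1, so their ratios are uncertain. At a resolution of 0.6 Aldoc, Clu and Aldh1l1 spanned 6.38, 12.2 and 19 times. Slc1a3 spanned 4.95 times, against 4.70 times in adherent cells, where the highest cluster was the shallow cluster 10 of 47 cells. Sparcl1 spanned 3.42 times, against 4.09 times in adherent cells. At a resolution of 0.6 that order turned for Sparcl1, with 2.89 times in neurosphere and 1.90 times in adherent cells.

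Cluster 6, led by Enpp2, Dusp15 and the myelin gene Mbp, was highest for Sparc at 440.3 CPM, for Sparcl1 at 101.2 CPM and for Aldoc at 59.6 CPM, and reached 204.1 CPM for Slc1a3. The 8 markers of the oligodendrocyte lineage together were also highest there, at 6070 CPM, against 1444 to 5302 CPM in the other neurosphere clusters. Cells of cluster 6 had a median of 8267 UMIs, against 13198.5 in the whole neurosphere library, and the part of that in these levels was not tested. Aldoc was next highest in cluster 8 (Aatk, Chn2 and S100a16), at 53.1 CPM, where the same markers were at 5302 CPM. It was at 50.2 CPM in cluster 11 (Tnnt3, Lbhd2 and Il11), where the markers were at 1444 CPM.

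Cluster 1, led by the cartilage matrix gene Comp with Ism1 and Pdzd2, was highest for Glul at 102.4 CPM and for Aldh1l1 at 34.3 CPM. It held 13.4% of the neurosphere cells and 47.7% of the Aldh1l1 UMIs, while the other neurosphere clusters were at 0.929 to 6.90 CPM of Aldh1l1. Its cells had a median of 7544 UMIs, against 13198.5 in the whole neurosphere library, and the part of that in these levels was not tested. Without cluster 1, an alternative chosen after seeing the data, Aldh1l1 was at 3.05 CPM in neurosphere cells and its log2 fold change turned to -0.25 (-0.56 to 0.058). Glul was then at 36.8 CPM, with a log2 fold change of 1.13 (1.01 to 1.24), and stayed over 2-fold higher. The 2 members that peaked in cluster 1 are enzymes, and the same cluster was lowest for Slc1a3, at 43.2 CPM.

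Clu peaked in cluster 3, led by Chit1, Spp1 and Wfdc3, at 18.5 CPM (15.1 to 22.4), which held 10.3% of the neurosphere cells and 31.8% of the Clu UMIs. It was lowest in cluster 5, led by S-phase histone genes, at 1.08 CPM (0.465 to 2.12). Slc1a3 peaked in cluster 11 at 213.7 CPM (194.6 to 234.2), the cluster that was lowest for Glul, at 14.9 CPM. Cluster 4, led by Wnt7b, Btbd16 and Steap3, was lowest for Sparc at 67.7 CPM, for Sparcl1 at 29.6 CPM and for Aldoc at 4.01 CPM. Its cells were the deepest of the neurosphere clusters, at a median of 20554 UMIs, and the part of that in these levels was not tested.

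**Figure D5:**
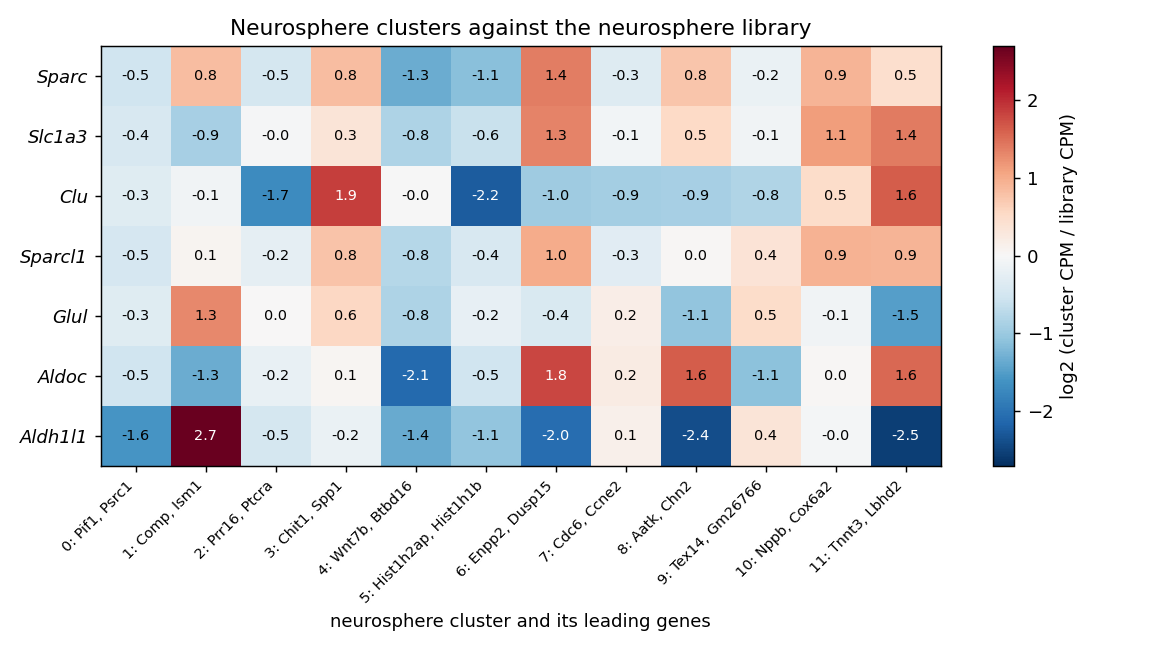
Log2 ratio of the CPM of 7 members in each of 12 neurosphere clusters to their CPM in the whole neurosphere library, with the 2 leading genes of each cluster. Sparc, Slc1a3, Sparcl1 and Aldoc are high together in cluster 6, Aldh1l1 and Glul in cluster 1, and Clu in clusters 3 and 11.

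The members were also followed cell by cell. After thinning, the median cell had a UMI of 2 members in adherent and of 1 member in neurosphere cells, with at most 5 and 6 members in any cell. A cell without any member made up 0.605% of adherent and 27.9% of neurosphere cells. These figures lean on Sparc, found in 98.2% and 44.8% of these cells, and on Slc1a3, found in 71.9% and 26.4%. Glul and Aldoc, in contrast, were found in a larger share of the neurosphere cells. Pearson correlations between members over thinned cells reached 0.21 at most (Sparc with Sparcl1 in 4196 neurosphere cells) and 0.12 in 4464 adherent cells (Slc1a3 with Sparcl1), too weak in sparse counts to carry a finding. Over all genes with at least 500 UMIs in a library, those most like Sparc were S100b, Ppp2r2b and Id3 in neurosphere cells (correlations of 0.33, 0.29 and 0.28) and Vim, Dbi and Tm4sf1 in adherent cells (0.28, 0.25 and 0.23). For Slc1a3 they were Lhfpl3, Ppp2r2b and Fabp7 in neurosphere cells (0.31, 0.24 and 0.21) and Chl1, Col11a1 and F3 in adherent cells (0.26, 0.25 and 0.25). Aldoc had Fabp7, a fatty acid carrier of radial glia, as its closest gene in both libraries, at 0.15 in adherent and 0.25 in neurosphere cells. Sparcl1 had Dbi in both, at 0.19 and 0.26. Glul was closest to Krt8 in neurosphere cells, at 0.21, and to no gene above 0.061 in adherent cells, and Clu to no gene above 0.093 in adherent cells. All cells of a library share 1 culture and 1 reaction, and the correlations are given without a test.

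Other genes enriched in astrocytes were counted for comparison. Of 21 such genes, 12 had at least 50 UMIs over both libraries, of which 3 were over 2-fold higher, 6 over 2-fold lower and 3 in between, with a median log2 fold change of -1.002. Fgfr3, a growth factor receptor of astrocytes, was at 1.22 CPM in neurosphere against 10.3 CPM in adherent cells (log2 fold change -3.09, -3.45 to -2.74), and Ndrg2 was at 0.693 against 4.64 CPM (-2.74). The glypican Gpc5 was at 17.4 against 1.30 CPM (3.74, 3.37 to 4.14), and the BMP antagonist Chrdl1 at 2.68 against 0.627 CPM (2.10). Gjb6 and Slc7a10, a gap junction protein and an amino acid transporter of mature astrocytes, had 0 UMIs in both libraries. Over all genes tested, 21.7% were higher and 11.7% lower by the same rule, with a median of 0.32.

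Of 13 measured genes of reactive astrocytes, 0 were over 2-fold higher, 8 over 2-fold lower and 5 in between, against 21.7% higher and 11.7% lower among all genes, and the median log2 fold change was -1.76. No test was run on the list. Tm4sf1 was at 43.6 CPM in neurosphere against 1070 CPM in adherent cells (log2 fold change -4.61), and the cytokine receptor Osmr was at 2.20 against 36.4 CPM (-4.05). The highest of the list were Nes, the filament protein nestin, with a log2 fold change of 0.95, and Lcn2 with 0.54. Among family relatives of the members, 10 were measured, with 2 over 2-fold higher, 4 lower and a median of -0.11, and Aldoa was left out since 2 identifiers carry its symbol. Vim, which forms filaments in astrocytes together with Gfap, was at 1763 against 5583 CPM (-1.66), and Synm at 0.231 against 0.907 CPM (-1.97). Vim is also counted among the 8 lower genes of reactive astrocytes. Smoc1, of the SPARC family, was at 212.8 against 44.5 CPM (2.26, 2.19 to 2.32), opposite to Sparc, and Spock1 had 57 UMIs against 2 UMIs (4.34, 2.43 to 7.42).

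Markers of other cell types were read beside these values, and their part in the differences was not tested. By the same rule 21.7% of all genes were over 2-fold higher and 11.7% lower, with a median log2 fold change of 0.32. The 8 oligodendrocyte lineage markers summed to 774.6 CPM in adherent against 2560 CPM in neurosphere cells, with 5 over 2-fold higher, 1 lower and a median log2 fold change of 1.45. Of these, Gpr17 had 1 UMI in adherent and 904 UMIs in neurosphere cells (log2 fold change 9.33, 6.85 to 14.64), Olig1 was at 141.1 and 1292 CPM (3.20), Mbp at 254.7 and 123.5 CPM (-1.04) and Pdgfra at 6.61 and 4.87 CPM (-0.44). Neural stem cell markers summed to 376.0 and 489.8 CPM, with 1 of 6 over 2-fold higher and none lower (median 0.78). Of these, Hes5 (5.82) and Nes (0.95) had the highest log2 fold changes and Sox2 (-0.21) and Pax6 (0.096) the lowest. Hes5 and Nes also belong to lists described above. Neuron markers summed to 53.9 and 238.0 CPM, with 2 of the 4 measured over 2-fold higher (median 1.08), led by Map2 (2.89) and Syt1 (1.48), while Tubb3 (0.68) and Syp (-0.60) were lowest.

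Fibroblast and pericyte markers summed to 3.59 CPM in adherent against 387.3 CPM in neurosphere cells. Of the 7 genes, 3 had at least 50 UMIs, and all 3 were over 2-fold higher, against 21.7% of all genes. Dcn and Lum reached that minimum through their neurosphere UMIs alone. Of the genes under it, Pdgfrb had 32 UMIs in adherent and 4 UMIs in neurosphere cells, and Acta2 15 and 3. Col1a2, with 1 and 23 UMIs, and Rgs5, with 1 and 9, went the other way. Col1a1 was at 2.51 and 329.0 CPM (log2 fold change 7.04), Dcn had 1 UMI and 3606 UMIs (11.33, 8.85 to 16.63), and Lum had 0 UMIs and 143 UMIs. The list's median was 11.33, or 7.04 with Lum at the bound that a floor of 3 UMIs gives. These markers were found in every neurosphere cluster, at 69.7 to 551.0 CPM summed, and at 515.4 CPM in cluster 1. Microglia and macrophage markers summed to 12.9 and 6.05 CPM (median -0.95 over 2 genes, with 1 lower), with Cd68 at -1.30 and Cx3cr1 at -0.59 and the defining markers C1qa and Tyrobp at 0 UMIs in both. Endothelial markers summed to 1.88 and 6.27 CPM (median 1.98 over 2 genes, both higher), with Vwf at 2.67 and Pecam1 at 1.28 and Cdh5 at 0 UMIs in both.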

How the data were processed

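Adherent and neurosphere GL261 cells were each profiled as 1 scRNA-Seq library. For each, the authors deposited the raw UMI count of every gene in every cell called by Cell Ranger 7.0.1 (mm10, per the labels), without normalization. Whether reads in introns were counted is not given in the sources used here.

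Following the study's methods, 13 mitochondrial and 101 ribosomal genes were removed, then cells with fewer than 1000 UMIs or fewer than 1250 (adherent) or 2250 genes (neurosphere). Of 5764 adherent and 4951 neurosphere cells, 87.6% and 86.4% were kept. The numbers of kept cells and of clusters differ from those the study reported, so the clusters here are not the study's own. Mitochondrial UMIs had a median of 2.02% and 3.97% in kept cells. No doublet caller was run, and leaving out cells over the 95th percentile of UMIs was an alternative.

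UMIs were summed per library and divided by the total (CPM). Log2 fold changes have exact conditional 95% intervals, and shares have exact binomial (Clopper-Pearson) ones. A gene was counted as over 2-fold different only where the libraries together held at least 50 UMIs, and a count of 0 was read at a floor of 3 UMIs. Seurat 5.3.0 (R 4.3.3) clustered each library on 2000 variable genes less the members, with 17 PCs (adherent) or 18 PCs (neurosphere) and a resolution of 1.0. Python 3.11.15 with numpy 2.4.6 and scipy 1.17.1 did the rest, tested on simulated data. TMM factors came from edgeR 4.0.16. Positions are from GENCODE M21 (GRCm38). The members, gene lists and settings were chosen with earlier results of these data known. Named genes were all members, the 2 highest and 2 lowest measured genes of each list, the 3 leading genes of a cluster (at least 200 UMIs, with 1 such gene not reported here) and the 3 genes most correlated with a member (at least 500 UMIs). Other list genes in the text (Stat3, Nfia, Nfib, Il6st, Pdgfrb, Acta2, Col1a2, Rgs5 and genes at 0 UMIs) were chosen after their values were seen.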

Additional observations from a re-analysis of the deposited data

Results flagged for a closer look

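The barcodes that the cell filter left out, 713 in the adherent and 675 in the neurosphere library, enter no comparison above. Their median depth was 833 and 1111 UMIs, of which a median of 48.9% and 87.0% were mitochondrial. As CPM of the genes left, 6 values of members were higher there than in the kept cells of the same library, with intervals that do not overlap. How many of all genes were higher by the same rule was not counted, so this is not shown to be particular to the members. In the adherent library Slc1a3 was at 933.7 CPM in the barcodes left out (840.4 to 1034) against 370.4 CPM in kept cells, and Sparcl1 at 99.5 CPM (70.8 to 136.0) against 56.7 CPM. In the neurosphere library Slc1a3 was at 187.9 CPM (154.2 to 226.9) against 80.6 CPM, Sparcl1 at 109.6 CPM (84.2 to 140.3) against 50.5 CPM, Sparc at 330.6 CPM (285.3 to 381.1) against 170.2 CPM, and Clu at 13.9 CPM (6.01 to 27.4) against 5.08 CPM. These rest on 392008 UMIs in the adherent and 574706 UMIs in the neurosphere barcodes left out. Sparc in the adherent barcodes left out was at 1138 CPM (1035 to 1248) against 1247 CPM in kept cells. Gfap, Aqp4 and Slc1a2 had 0 UMIs in all barcodes left out.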

How the results depend on the processing

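The counts of 1 member over 2-fold higher and 3 members over 2-fold lower were the same under 9 other choices of cell filter, scaling, cell weight and depth and at a minimum of 500 UMIs in the libraries together. At a minimum of 1 UMI the number lower was 4, since Slc1a2 then counted. Over 11 alternatives the log2 fold change ranged from -3.09 to -2.53 for Sparc, -2.77 to -2.34 for Clu, -2.42 to -1.98 for Slc1a3, 1.09 to 1.53 for Glul and 0.38 to 0.81 for Aldoc. The sign turned in 2 cases, for Sparcl1 to 0.050 when the library total also counted mitochondrial and ribosomal genes, and for Aldh1l1 to -0.25 without neurosphere cluster 1, where a single cluster holds 47.7% of its UMIs. Leaving out that cluster, or adherent cluster 10, was chosen after seeing the data. TMM scaling moved the median of all genes by -0.22 and the larger total, with mitochondrial and ribosomal UMIs, moved it by 0.22. TMM scaling gave 2354 genes over 2-fold higher and 2128 lower among all genes, against 3181 and 1711 without it, and the larger total gave 4325 and 1375. Thinning to 3000 UMIs in place of 5000 lowered 14 of 20 shares beyond their intervals. At a resolution of 0.6 there were 7 clusters in each library, and 4 of 14 highest cluster levels moved beyond their interval. No paired analysis was possible because each culture is 1 library. Counts of 4 and 2 UMIs limit Slc1a2, and 30 and 27 UMIs limit Gfap.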
